A study of Mus musculus with 4 samples.

Results

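The genes described here are 34 genes that mark astrocytes or carry out their housekeeping work in the brain, chosen by name from the gene column of the arrays. All 34 of them were present among 29676 gene names, and they were read by 58 probes, 19 of the genes by 1 probe and 15 by several. They were measured in astrocyte-enriched cultures (AECs), that is, mixed glia grown from the cortex of newborn ICR mice and cleared of most microglia with PLX3397, which blocks the receptor *Csf1r*. The comparison set untreated AECs (2 arrays) against AECs kept for 15 h under oxygen–glucose deprivation (OGD; 2 arrays), a culture model of ischemia in which cells stay in glucose-free medium under hypoxia. Both groups shared the strain, the tissue and the PLX3397 step, and the labels name no other treatment. By the study's methods wells were seeded from separate cultures made from separate pups, while the labels do not say which culture each of the 2 samples of a group came from, so part of the spread behind the p-values may be technical. AECs still hold glia other than astrocytes, and in such a bulk sample a smaller number of astrocytes and less RNA per astrocyte cannot be told apart. The study's methods describe labeling of a fixed amount of total RNA. Signals under any scaling used here are thus relative to RNA input, and do not give amounts per culture or per cell. The paper reports that under OGD cells shrank, some detached and more lactate dehydrogenase was released. Cell number and RNA yield behind each array were not tested here.

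Astrocytes take up the glutamate and GABA that neurons release, turn glutamate into glutamine, buffer water and ions at the end-feet on blood vessels, and pass small molecules to one another through gap junctions. They also secrete proteins that act on synapses. The transcription factors *Sox9*, *Nfia*, *Nfib* and *Nfix* start and maintain the astrocyte program, and *Gfap*, *Aldh1l1* and *S100b* are the markers most often used to recognise the cell.

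The processed signal of the arrays is the brightness of a spot after subtraction of background, in the units of the scanner. Untreated arrays had a 75th percentile over all probes of 2135 and 2164, and OGD arrays of 886.9 and 776.4, a shift of −1.37 on the log2 scale. Spiked-in control RNA, which is added in fixed amounts, shifted by only −0.085 on average over 9 probes (range −0.75 to 0.28). Following the methods of the study, each probe was set against the 75th percentile of its array, and a change on this scale is relative to that percentile. The same change set against the spiked-in RNA is lower by 1.29 on the log2 scale for every gene, and is given beside it. The median change of the 21061 genes tested was 0.16 on the first scale and −1.13 on the second. A gene was represented by its brightest probe, and each of the 34 genes was well above background on every array by that probe.

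Relative to the 75th percentile, most of the astrocyte genes were higher after OGD and a small group of regulators was lower. With limma at an adjusted p under 0.05, 22 of the 34 genes were higher (64.7%, against 37.1% of all genes tested), 4 were lower (11.8%, against 27.8%) and 8 were not called (*Slc1a3*, *Slc6a11*, *Aqp4*, *Hepacam*, *Gjb6*, *Atp1b2*, *Acsl6* and *Sparc*). By more than 2-fold, 7 were higher (20.6%, against 12.7%) and 2 lower (5.88%, against 15%). None changed by more than 10-fold, the limit in the study's methods, which 0.707% of all genes passed upward and 0.56% downward. The median change of the 34 genes was 0.62, which is 0.46 above the median of all genes on either scale. That distance was 0.17 with quantile normalization, 0.21 without a filter on dim probes and 0.11 with normexp background correction, where 25 of the 34 (73.5%) and 60.5% of all genes were called higher. Against the spiked-in RNA 0 of the 34 were higher in the limma fit (0 also at an unadjusted p under 0.05, against 3.84% of all genes called) and 26 were lower (76.5%, against 83.3% of all genes), with a median of −0.67. Those 26 included the 8 genes not called on the first scale except *Gjb6*. The number of genes called lower was 2 without either untreated array, the calls of *Nfib* and *Fgfr3* being lost, and the number called higher was 15 without untreated replicate 1 and 14 without untreated replicate 2. In these runs 23.1% and 19.7% of all genes were called higher, and 17.6% and 17.7% lower. With quantile normalization 14 were higher (41.2%, against 28.3% of all genes) and 7 lower (20.6%, against 31.1%).

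**Figure D1:**
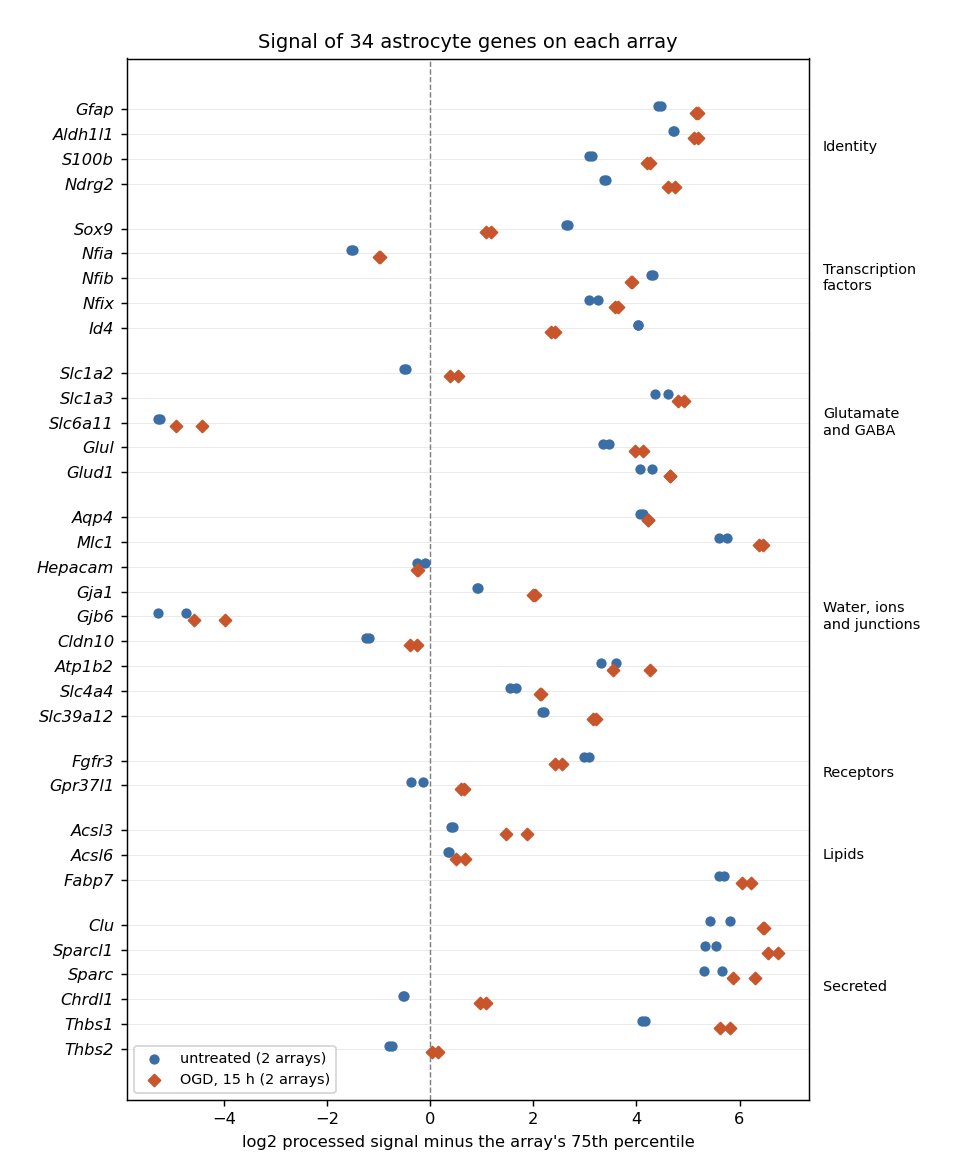
Log2 processed signal minus the 75th percentile of the array (x axis) for the brightest probe of each of the 34 astrocyte genes (rows, ordered by role), with untreated arrays as blue circles and OGD arrays as orange diamonds, 2 arrays each. After OGD the points of *Sox9*, *Nfib*, *Id4* and *Fgfr3* lie to the left of the untreated points and those of most other genes to the right, on this scale, and levels of different genes are not comparable.

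Before any scaling, the processed signal itself was lower on both OGD arrays than on both untreated arrays for 30 of the 34 genes (88.2%, against 90.9% of all genes). By its brightest probe, *Chrdl1* was the 1 gene with higher signal on both OGD arrays (2.94%, against 4.78% of all genes), and the signals of *Gjb6*, *Acsl3* and *Thbs1* overlapped between the groups. The ratio of the mean signals, OGD over untreated, ranged from 0.123 for *Id4* to 1.15 for *Thbs1*, with a median of 0.593 over the 34 genes and 0.431 over all genes. For most of the 22 genes, a value above 0 relative to the 75th percentile thus stands beside a signal that was lower after OGD, by less than the percentile was.

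**Figure D2:**
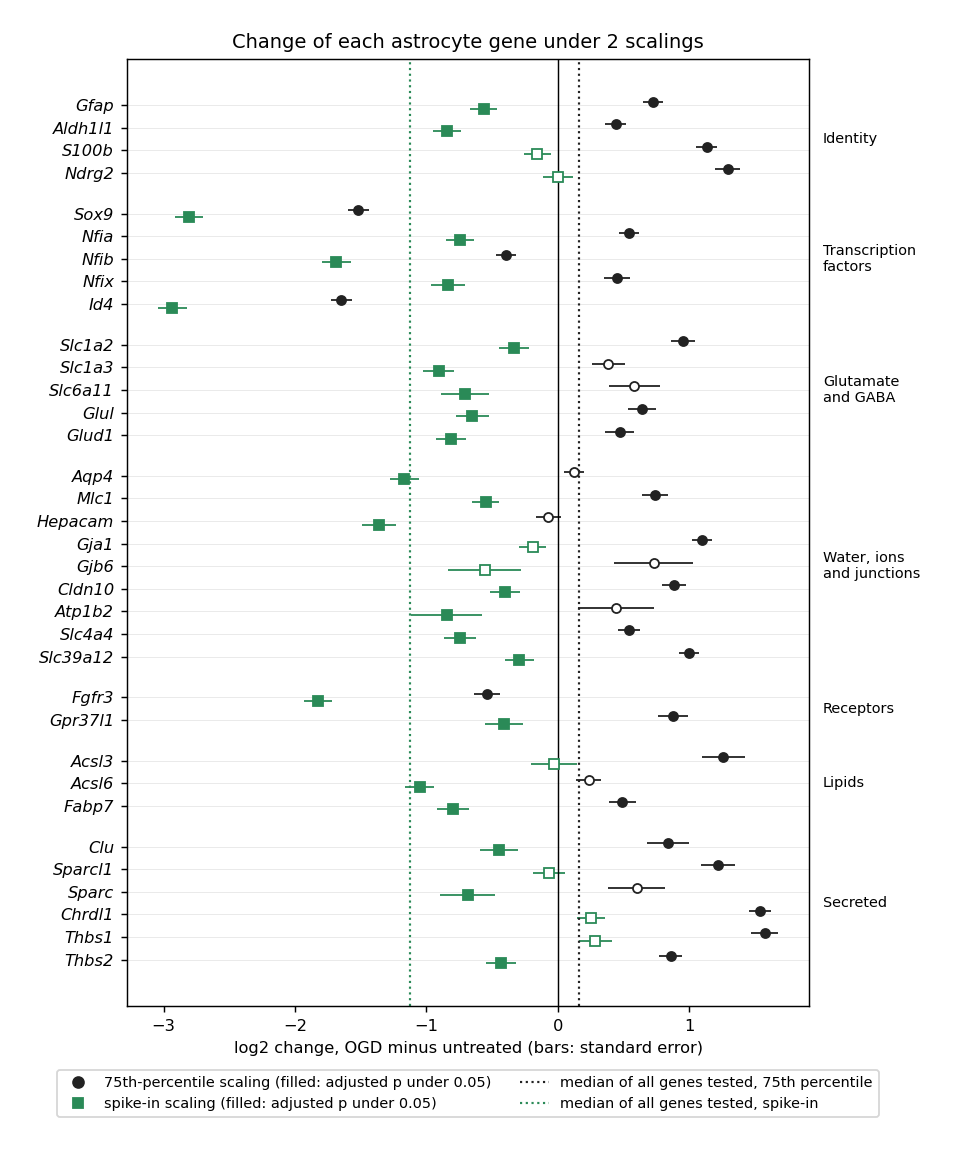
Log2 change, OGD minus untreated (x axis, bars show the standard error), of the 34 genes with 75th-percentile scaling (black circles) and with spike-in scaling (green squares); filled points passed an adjusted p under 0.05 in limma and dotted lines are the medians of all genes tested. Every point moves left by 1.29 with the spiked-in RNA, where 26 genes are lower, while *Sox9*, *Nfib*, *Id4* and *Fgfr3* lie left of 0 on both scales.

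Of the 34 genes, 26 had at least 1 promoter window in the RefSeq table used here (GRCm38.p6), and the 250 bases before each start site were read in 36 windows. The windows printed are those of *Id4* and *Fgfr3*, which were lower under every scaling tried, of *Ndrg2*, which rose relative to the 75th percentile and lay near 0 with spike-in scaling, and of *Gja1*, the gene with an AP-1 match that rose relative to the 75th percentile. Capitals mark the core that hypoxia-inducible factors bind (ACGTG or GCGTG, or their reverse complements CACGT and CACGC) and the AP-1 motif (TGAGTCA or TGACTCA), on both strands. For genes with several start sites the most upstream window is shown. The windows lie at chr14:51914005-51914254 (minus strand) for *Ndrg2*, chr13:48260866-48261115 (plus) for *Id4*, chr5:33721474-33721723 (plus) for *Fgfr3* and chr10:56377050-56377299 (plus) for *Gja1*.
Ndrg2: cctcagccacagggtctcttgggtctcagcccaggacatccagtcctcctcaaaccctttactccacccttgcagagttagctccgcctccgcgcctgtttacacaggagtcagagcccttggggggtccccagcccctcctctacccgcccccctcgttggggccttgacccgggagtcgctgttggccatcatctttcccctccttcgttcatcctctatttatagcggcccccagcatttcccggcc
Id4: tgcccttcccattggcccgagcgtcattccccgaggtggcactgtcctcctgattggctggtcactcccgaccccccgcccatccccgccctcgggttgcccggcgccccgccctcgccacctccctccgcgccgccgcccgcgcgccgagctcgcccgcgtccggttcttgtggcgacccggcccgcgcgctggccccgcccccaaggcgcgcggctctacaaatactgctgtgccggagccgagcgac
Fgfr3: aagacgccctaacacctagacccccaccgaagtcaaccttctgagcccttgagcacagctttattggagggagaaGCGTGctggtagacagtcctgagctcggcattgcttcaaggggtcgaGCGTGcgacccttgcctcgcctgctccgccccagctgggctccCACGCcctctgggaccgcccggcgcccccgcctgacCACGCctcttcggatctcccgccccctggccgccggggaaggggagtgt
Gja1: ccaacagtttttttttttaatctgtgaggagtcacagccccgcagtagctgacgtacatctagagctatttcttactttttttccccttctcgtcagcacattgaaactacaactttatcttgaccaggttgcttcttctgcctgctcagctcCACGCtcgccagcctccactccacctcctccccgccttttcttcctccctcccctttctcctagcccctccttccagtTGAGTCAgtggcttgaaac

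The window of *Fgfr3* held 4 matches to the hypoxia-inducible factor core and that of *Gja1* held 1, beside 1 AP-1 match, while those printed for *Ndrg2* and *Id4* held 0 of either. The other 2 windows of *Ndrg2* held 1 and 2 matches to the core, and the second window of *Fgfr3* held 0. Over all 36 windows, 11 (30.6%) held the core, against 38.6% of the 32851 windows in the table, and 2 (5.56%) held AP-1, against 4.46%. Among genes that were higher after OGD relative to the 75th percentile, 9 of 25 windows (36%) held the core, and among those that were lower 1 of 3 did (33.3%). The NFI half-site (TTGGCA or TGCCAA) was in 3 windows (8.33%, against 12.3%), those of *S100b*, *Hepacam* and *Thbs2*. G and C made up 75.6% of the *Id4* window against a median of 52.4% over the table. These matches describe letters in a window only, and ACGTG is also part of the E-box CACGTG.

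All 4 of the identity markers were higher after OGD relative to the 75th percentile (37.1% of all genes were), with a median change of 0.93, and the median was −0.36 against the spiked-in RNA. *Gfap*, the intermediate filament protein of astrocytes, had processed signals of 47440 and 46410 on the untreated arrays and of 31710 and 28270 after OGD. Its signal was thus lower on both OGD arrays, while it rose by 0.72 relative to the 75th percentile (SE 0.077, limma adjusted p = 0.00326) and was at −0.56 with spike-in scaling. The other 2 probes of *Gfap* changed by 0.83 and 0.82 on the first scale, so all 3 lay close together. With quantile normalization the brightest probe was at −0.026.

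*S100b*, a calcium-binding protein, had signals of 18780 and 18240 untreated and of 16420 and 14950 after OGD. The groups did not overlap, and *S100b* rose 2.19-fold relative to the 75th percentile (log2 change 1.13, SE 0.080, limma adjusted p = 0.00154), against −0.16 with spike-in scaling, where it was not called. *Ndrg2*, a cytoplasmic protein of astrocytes in the N-myc downstream-regulated family, had signals of 22000 and 22980 untreated and of 21580 and 20900 after OGD. These 4 signals lay within a narrow range, with both OGD arrays slightly below both untreated arrays. *Ndrg2* rose 2.45-fold relative to the 75th percentile (1.29, SE 0.092, adjusted p = 0.00156) and was at 0.0025 with spike-in scaling, where its adjusted p was 0.984.

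For *Aldh1l1*, an enzyme of folate metabolism, the 2 probes moved in opposite directions relative to the 75th percentile, while with spike-in scaling and in the signal itself both were lower. The brighter probe (chr6:90549091-90549150, mm9, plus strand) had signals of 55930 and 57310 untreated and of 30840 and 28570 after OGD, and rose by 0.44 relative to the 75th percentile (SE 0.080, adjusted p = 0.0123), against −0.85 with spike-in scaling and −0.34 with quantile normalization, where it was called lower (adjusted p = 0.0474). The dimmer probe lies 937 bases further downstream, at chr6:90550028-90550087, and the array design assigns it to an Ensembl transcript. It had signals of 770.7 and 809 untreated and of 54.93 and 52.9 after OGD, and fell by 2.50 on the log2 scale relative to the 75th percentile (SE 0.091, adjusted p = 0.000754; −3.79 with spike-in scaling and −1.70 with normexp background correction). Neither probe was near background on any of the 4 arrays, and with the mean over the probes the gene was at −1.03. Without untreated replicate 1 or 2 the brighter probe was no longer called (adjusted p = 0.0983 and 0.096).

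The transcription factors were the group that differed in sign, with a median of −0.40 relative to the 75th percentile (−1.69 against the spiked-in RNA), and on the first scale 3 of the 5 fell (60%, against 27.8% of all genes) and 2 rose (40%, against 37.1%). *Sox9*, the factor that specifies glia and stays on in mature astrocytes, had signals of 13260 and 13800 untreated and of 1889 and 1757 after OGD. The OGD arrays were far below the untreated arrays and each pair lay close together. *Sox9* fell 2.87-fold relative to the 75th percentile (log2 change −1.52, SE 0.082, limma adjusted p = 0.00103) and was at −2.81 with spike-in scaling. Its single probe lies at chr11:112648809-112648868 of mm9, on the plus strand.

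*Id4*, an inhibitor of basic helix-loop-helix factors that keeps progenitors from differentiating, changed the most of the factors. Its signals were 34930 and 35240 untreated and 4730 and 3954 after OGD, with no overlap. The brightest probe of *Id4* (chr13:48358668-48358727, mm9, plus strand) fell 3.13-fold relative to the 75th percentile (−1.65, SE 0.078, adjusted p = 0.000893; −2.94 with spike-in scaling), and its second, more downstream probe fell by 2.32 (−1.69 with normexp background correction).

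The 3 nuclear factor I genes, whose proteins bind the same DNA site and act with *Sox9*, did not move together. *Nfib* was lower with every one of its 5 probes, which changed by between −0.34 and −1.25 and all passed the test, with the brightest at −0.40 (SE 0.076, adjusted p = 0.0141; −1.69 with spike-in scaling). *Nfia* rose by 0.54 with its brighter probe (SE 0.075, adjusted p = 0.00617; −0.75 with spike-in scaling) and was at −0.15 with the dimmer one, which was not called. With normexp background correction both probes of *Nfia* were above 0, at 0.52 and 0.44. *Nfix* rose by 0.45 with its brighter probe (SE 0.099, adjusted p = 0.0203), was at −0.83 with spike-in scaling and at −0.0092 with quantile normalization, and was at −0.11 with the other probe, which was not called. The calls of all 3 genes were lost without untreated replicate 1 (adjusted p = 0.0971 for *Nfib*, 0.0587 for *Nfia* and 0.126 for *Nfix*) and without untreated replicate 2 (0.121, 0.0679 and 0.0666), and that of *Nfix* also without OGD replicate 2 (0.054) and with the percentile over well-measured probes (0.069). With the mean over a gene's probes *Nfia* was at 0.20 (adjusted p = 0.0802) and *Nfix* at 0.17 (0.237). *Sox9*, *Id4* and *Nfib* were lower in all 18 settings, with ranges of −2.81 to −1.48, −2.94 to −1.61 and −1.69 to −0.38.

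Other transcription factors of the glial and progenitor program were read in the same fit from a list of 16 genes. Of these, 13 fell (81.2%, against 27.8% of all genes), 0 rose (limma; 37.1% of all genes) and 3 were not called, with a median change of −1.43 relative to the 75th percentile. Against the spiked-in RNA all 16 were lower, where 83.3% of all genes were, with a median of −2.72 against −1.13 over all genes. With normexp background correction 14 were lower (20.8% of all genes were) and 1 higher, with a median of −1.04. *Hes1*, a target of Notch, showed the largest decrease, −2.83 (SE 0.12, adjusted p = 0.000816), with signals of 609.1 and 537.4 untreated and of 31.01 and 30.93 after OGD. *Pou3f2*, a POU-domain factor of neural progenitors, fell by 2.70 and *Gli2*, a factor of the Hedgehog pathway, by 2.48. With normexp these 3 changes were smaller, at −1.49, −2.21 and −1.04. *Sox2*, at −2.475 relative to the 75th percentile, was at −2.33 with normexp and there showed the largest decrease of the list. The 3 factors that were not called were *Zbtb20* (−0.039), *Lhx2* (−0.27) and *Pou3f4*, which was not well above background after OGD.

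**Figure D3:**
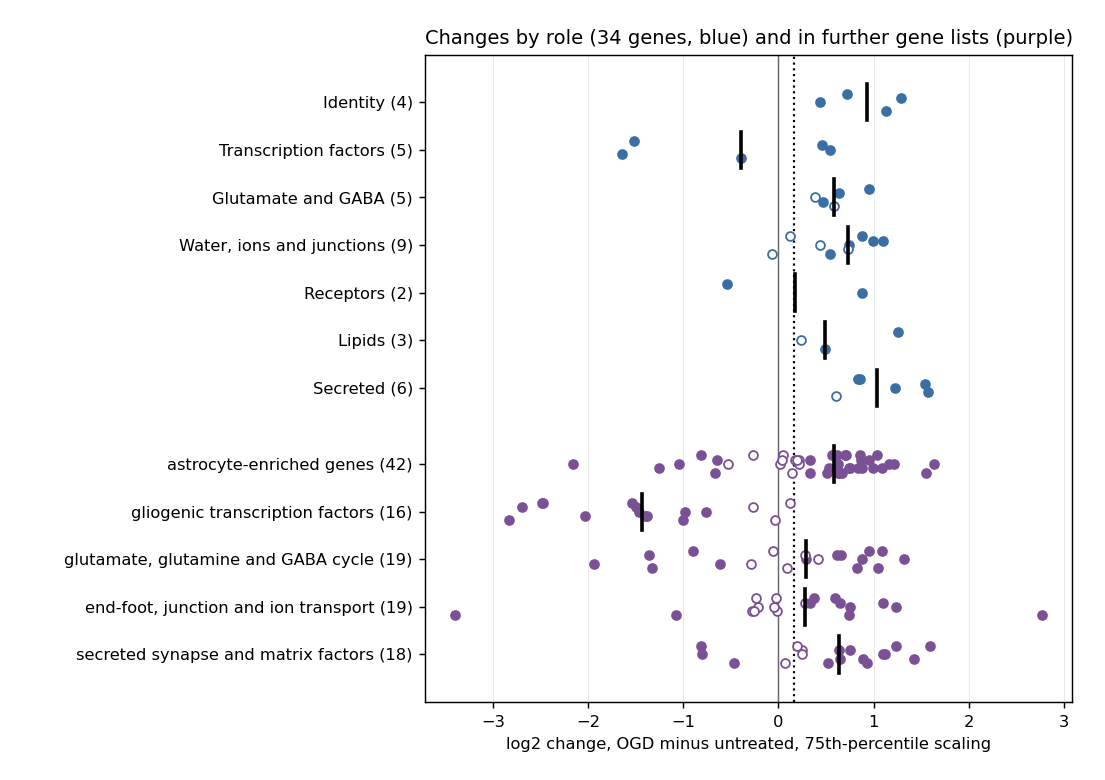
Log2 change, OGD minus untreated, with 75th-percentile scaling (x axis) for the 34 astrocyte genes by role (blue) and for further gene lists (purple), with the number of genes tested in parentheses; filled points passed an adjusted p under 0.05, black bars are medians and the dotted line is the median of all genes tested. The median lies at −0.40 for the 5 transcription factors and at −1.43 for the list of 16 further factors, and above the dotted line for the other lists on this scale; with spike-in scaling all points lie 1.29 further left and all medians are below 0.

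The genes for uptake and conversion of glutamate and GABA had a median change of 0.58 relative to the 75th percentile and of −0.71 against the spiked-in RNA. On the first scale 3 of the 5 rose (60%, against 37.1% of all genes) and 2 were not called. *Slc1a2* (GLT-1), the main glutamate transporter of mature astrocytes, had signals of 1504 and 1571 untreated and of 1166 and 1131 after OGD. It rose 1.94-fold relative to the 75th percentile (0.95, SE 0.092, limma adjusted p = 0.00269; −0.34 with spike-in scaling), and its 2 dimmer probes by 0.78 and 0.73. All 3 probes of *Slc1a2* thus passed the test in the same direction on this scale.

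*Slc1a3* (GLAST), the glutamate transporter of radial glia and young astrocytes, had signals of 52230 and 44450 untreated and of 24860 and 23650 after OGD. Both OGD signals were below both untreated ones, with a ratio of the means of 0.503. Relative to the 75th percentile its change of 0.38 (SE 0.12, adjusted p = 0.0592) was not called, with median scaling (0.39) it was (adjusted p = 0.0385), and with spike-in scaling it was at −0.91. *Glul*, glutamine synthetase, rose by 0.64 (SE 0.11, adjusted p = 0.00977) and was at −0.65 with spike-in scaling. With quantile normalization it was at 0.096 (adjusted p = 0.539) and with the methods' t-test its adjusted p was 0.055, so that neither called it. *Glud1*, glutamate dehydrogenase, rose by 0.47 with its brighter probe (SE 0.11, adjusted p = 0.0246; −0.82 with spike-in scaling) and by 0.98 with the other. Leaving out either untreated array ended the calls of *Glul* (adjusted p = 0.0733 and 0.0541) and *Glud1* (0.0542 and 0.132), and leaving out OGD replicate 1 or 2 that of *Glud1* (0.0603 and 0.0627), as did the percentile over well-measured probes (0.068). *Slc6a11*, the GABA transporter GAT-3, was dim, with signals of 55.32 and 57.21 untreated and of 29.21 and 36.24 after OGD, and its change of 0.58 was not called (adjusted p = 0.0634). With normexp background correction it was at 0.96 and was called (adjusted p = 0.000186). Without OGD replicate 1 it was at 0.83 (adjusted p = 0.0067) and without OGD replicate 2 at 0.33 (0.0408), and it was called in both.

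Further genes of the glutamate, glutamine and GABA cycle were mixed. Of 19 tested, 9 rose (47.4%, against 37.1% of all genes) and 5 fell (26.3%, against 27.8%), with a median of 0.29 relative to the 75th percentile (−0.99 against the spiked-in RNA, where 16 were lower, 84.2% against 83.3% of all genes, and 0 higher in limma). *Gad1*, which makes GABA, rose by 1.32, the glycine transporter *Slc6a9* by 1.09 and the monoamine oxidase *Maob* by 1.04. The mitochondrial glutamate carrier *Slc25a22* fell by 1.94, the cystine and glutamate exchanger *Slc7a11* by 1.36 and the glutamine transporter *Slc1a5* by 1.33. With spike-in scaling those 3 increases became 0.028, −0.20 and −0.24, and the 3 decreases grew to −3.23, −2.65 and −2.61. The decreases were −1.46, −0.029 and −0.33 with normexp background correction.

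Of the 9 genes for water, ions and junctions, 5 rose relative to the 75th percentile (55.6%, against 37.1% of all genes) and 4 were not called, with a median of 0.73 (−0.56 against the spiked-in RNA). *Gja1* (connexin 43), the main gap junction protein of astrocytes, had signals of 4087 and 4044 untreated and of 3524 and 3193 after OGD. Its signals were lower on both OGD arrays, while it rose 2.14-fold relative to the 75th percentile (SE 0.077 on the log2 scale, limma adjusted p = 0.00153) and was at −0.19 with spike-in scaling, where it was not called. *Gjb6* (connexin 30), the second connexin of mature astrocytes, was dim, with signals of 80.17 and 55.65 untreated and of 56.31 and 32.48 after OGD. Its signals overlapped between the groups, and its change of 0.73 had an SE of 0.30 and an adjusted p of 0.103. Leaving out 1 array at a time it lay between 0.43 (without OGD replicate 1) and 1.03 (without OGD replicate 2) and was not called. With normexp background correction it was at 0.98 and was called (adjusted p = 0.000371), as it was at 0.73 with the replicate block (0.0137).

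*Aqp4*, the water channel of the end-feet, had signals of 36110 and 37870 untreated and of 16660 and 14440 after OGD. Relative to the 75th percentile its brighter probe was at 0.12 (SE 0.076, adjusted p = 0.237), close to the median of all genes, and its second probe at 0.38 (adjusted p = 0.0375). With spike-in scaling the brighter probe was at −1.17, with quantile normalization at −0.51, where it was called lower (adjusted p = 0.0133), and with the percentile over well-measured probes at −0.034. *Hepacam*, an adhesion protein that holds *Mlc1* and connexins at astrocyte contacts, was at −0.072 and was not called (adjusted p = 0.536), with a change of −0.15 without untreated replicate 1 and of 0.0094 without untreated replicate 2. Its binding partner *Mlc1*, a membrane protein of perivascular processes, rose by 0.74 (SE 0.099, adjusted p = 0.00567) and was at −0.55 with spike-in scaling and −0.18 with quantile normalization. Without untreated replicate 2 *Mlc1* had an adjusted p of 0.0501.

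*Slc39a12*, a zinc importer, rose by 1.00 with its brighter probe (SE 0.078, adjusted p = 0.00179; −0.29 with spike-in scaling) and by 1.06 with the other. *Cldn10*, a claudin with channel properties, rose by 0.88 (SE 0.089, adjusted p = 0.00295; −0.40 with spike-in scaling). *Slc4a4*, the sodium bicarbonate cotransporter NBCe1, rose by 0.54 and 0.62 with its 2 bright probes (adjusted p = 0.0083 and 0.014), which overlap on the genome, and its distal, dim probe was at −0.59 and was not called (adjusted p = 0.12), and at 0.65 with normexp background correction. With spike-in scaling the brightest probe of *Slc4a4* was at −0.74, and its call was lost without untreated replicate 1 (adjusted p = 0.0746) or 2 (0.0545) and with the mean over its probes (0.19, adjusted p = 0.212). *Atp1b2*, a subunit of the sodium pump, had signals of 25980 and 21530 untreated and of 16970 and 9060 after OGD. The OGD arrays disagreed, and its change of 0.44 (SE 0.29, adjusted p = 0.244) was 0.085 without OGD replicate 1 and 0.80 without OGD replicate 2.

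Among 19 further genes of end-feet, junctions and ion transport, 9 rose (47.4%, against 37.1% of all genes) and 2 fell (10.5%, against 27.8%), with a median of 0.28 relative to the 75th percentile. Against the spiked-in RNA the median was −1.01 and 84.2% were lower, near the 83.3% of all genes. *Gjb2* (connexin 26) rose by 2.78 (SE 0.14, adjusted p = 0.000984), from signals of 457.8 and 398.5 to 1320 and 965.8, and remained higher with spike-in scaling, at 1.49. The zinc importer *Slc39a14* rose by 1.23 and the sodium pump subunit *Atp1b1* by 1.09 relative to the 75th percentile, against −0.057 and −0.19 with spike-in scaling. The manganese exporter *Slc30a10* was called lower and was not well above background after OGD. It was at least 5.71-fold lower (limma adjusted p = 0.00264), a bound that sets its untreated mean against the lowest signal measured above background on the OGD arrays, or its own where higher. With normexp background correction it was at −0.14.

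The 2 receptors moved in opposite directions relative to the 75th percentile. *Fgfr3*, the fibroblast growth factor receptor that marks astrocytes and their precursors, fell by 0.54 with its brightest probe (SE 0.096, adjusted p = 0.0118; −1.83 with spike-in scaling) and was lower in all 18 settings. Its other probes were at −0.16 and −0.52, neither of them called, and the latter was not well above background after OGD. Without untreated replicate 1 or 2 the call of *Fgfr3* was lost (adjusted p = 0.0897 and 0.0663). *Gpr37l1*, an orphan receptor of astrocytes, rose by 0.88 (SE 0.11, adjusted p = 0.00525) and was at −0.41 with spike-in scaling.

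Of the 3 genes for lipid handling, *Acsl3*, an acyl-CoA synthetase of lipid droplets, had signals of 2905 and 2870 untreated and of 3273 and 2168 after OGD. The OGD signals lay on both sides of the untreated ones, and *Acsl3* rose 2.39-fold relative to the 75th percentile (1.26, SE 0.16, limma adjusted p = 0.00527) with a change of −0.032 with spike-in scaling. With the methods' t-test *Acsl3* had an adjusted p of 0.0534. *Acsl6*, a synthetase with a preference for polyunsaturated fatty acids, was at 0.23 with its brighter probe (adjusted p = 0.10, −1.05 with spike-in scaling) and rose by 0.63 with the dimmer one. Without OGD replicate 1 the brighter probe of *Acsl6* was at 0.32 and was called (adjusted p = 0.0424), and without OGD replicate 2 it was at 0.15. *Fabp7*, the brain fatty acid-binding protein of radial glia and astrocytes, rose by 0.49 (SE 0.10, adjusted p = 0.0179), against −0.80 with spike-in scaling and −0.42 with quantile normalization, where it was called lower (adjusted p = 0.028). The call of *Fabp7* was lost without untreated replicate 1 (adjusted p = 0.0827) or 2 (0.121).

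The secreted proteins had the highest median of the 7 groups, 1.04 relative to the 75th percentile (−0.25 against the spiked-in RNA), and 5 of the 6 rose (83.3%, against 37.1% of all genes). *Thbs1*, thrombospondin 1, which astrocytes release to promote synapse formation, had signals of 38600 and 37350 untreated and of 49760 and 38270 after OGD. OGD replicate 1 was above both untreated arrays and OGD replicate 2 lay between them. *Thbs1* (chr2:117952585-117952644, mm9, plus strand) showed the largest increase of the 34 genes relative to the 75th percentile, 2.98-fold (1.57, SE 0.10, limma adjusted p = 0.00138), and was at 0.29 with spike-in scaling (adjusted p = 0.0832). With quantile normalization it was at 0.82, below *Chrdl1* at 1.52.

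*Chrdl1*, a BMP antagonist through which astrocytes promote the maturation of synapses, followed with a rise of 1.54 (SE 0.084, adjusted p = 0.00105; 0.25 with spike-in scaling, adjusted p = 0.0796). Its signals were 1479 and 1531 untreated and 1742 and 1638 after OGD, and the OGD signals were the higher ones without any scaling. The 2 other probes of *Chrdl1* rose by 2.00 and 1.13, and the first of these also rose with spike-in scaling, by 0.71 (adjusted p = 0.00383). That probe, at chrX:139725644-139725703 of mm9 on the minus strand, was the only 1 of the 58 to be called higher on both scales. *Thbs1* and *Chrdl1* were above 0 in all 18 settings, though neither was called by its brightest probe with spike-in scaling.

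*Sparcl1* (hevin), a matrix protein that helps to form synapses, had signals of 99620 and 86540 untreated and of 83550 and 83640 after OGD. It rose 2.33-fold relative to the 75th percentile (1.22, SE 0.13, limma adjusted p = 0.00327) and was at −0.067 with spike-in scaling. With quantile normalization it was at 0.28 and was not called (adjusted p = 0.0684). Its relative *Sparc*, which opposes hevin at synapses, was at 0.60 with its brightest probe (SE 0.22, adjusted p = 0.0756; −0.69 with spike-in scaling), and its dimmer probes were at 0.26, not called, and at 0.77, called (adjusted p = 0.047). Without OGD replicate 2 the brightest probe of *Sparc* was called (0.82, adjusted p = 0.0402), and without OGD replicate 1 it was at 0.38. *Clu*, the lipoprotein clusterin, rose by 0.84 (SE 0.16, adjusted p = 0.0139; −0.45 with spike-in scaling and −0.083 with quantile normalization; adjusted p = 0.0865 with the methods' t-test), and *Thbs2*, thrombospondin 2, by 0.86 (SE 0.089, adjusted p = 0.00315; −0.43 with spike-in scaling). In a list of 18 further secreted synapse and matrix factors 11 rose (61.1%, against 37.1% of all genes) and 3 fell (16.7%, against 27.8%), with a median of 0.64 relative to the 75th percentile. Against the spiked-in RNA the median was −0.65 and 13 were lower (72.2%, against 83.3%). The calcium-binding matrix protein *Smoc2* (1.59), the matrix protein tenascin *Tnc* (1.43) and the glypican *Gpc4* (1.24), which acts on glutamate receptors at synapses, rose the most, and were at 0.30, 0.14 and −0.049 with spike-in scaling. The phagocytic receptor *Megf10* (−0.82), *Gpc6* (−0.80) and the proteoglycan versican, *Vcan* (−0.47), fell on the first scale and were lower still on the second.

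Scaling that shifts all genes of an array by the same amount cancels in the ratio of a pair of genes on that array. For this reason 10 pairs of related genes or partners were compared in this way. Quantile normalization can shift the genes of an array by different amounts, so it need not cancel in these ratios. With 2 arrays against 2, the exact permutation test (two-sided) cannot give a p below 0.333, and the pairs that did not overlap are given by their size. The ratio of *Nfia* to *Nfib* was higher after OGD by 0.94 on the log2 scale, from −5.83 ± 0.054 (SD, n = 2) to −4.89 ± 0.0020, and that of *Nfib* to *Nfix* changed by −0.85. *Acsl3* gained 1.02 on *Acsl6*, *Mlc1* 0.81 on *Hepacam*, *Thbs1* 0.72 on *Thbs2* and *Slc1a2* 0.57 on *Slc1a3*. *Sparc* lost ground to *Sparcl1*, with a change of −0.62. In these 7 pairs no OGD array overlapped with an untreated array (exact permutation p = 0.333 each). Of single genes, 84.5% showed no overlap in their normalized values, which depend on scaling between arrays. The share over ratios of other gene pairs is not given here. The ratios of *Gja1* to *Gjb6* (0.37), *Glul* to *Glud1* (0.17) and *Nfia* to *Nfix* (0.089) overlapped between the groups. Without 1 array the second of these turned to −0.013 (untreated replicate 1) and the third to −0.015 (untreated replicate 2). With quantile normalization *Mlc1* (−0.18) lay below *Hepacam* (−0.070) and *Thbs1* (0.82) below *Thbs2* (0.88), so the gains of *Mlc1* and *Thbs1* were lost. The other pairs without overlap kept their direction under that setting.

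**Figure D4:**
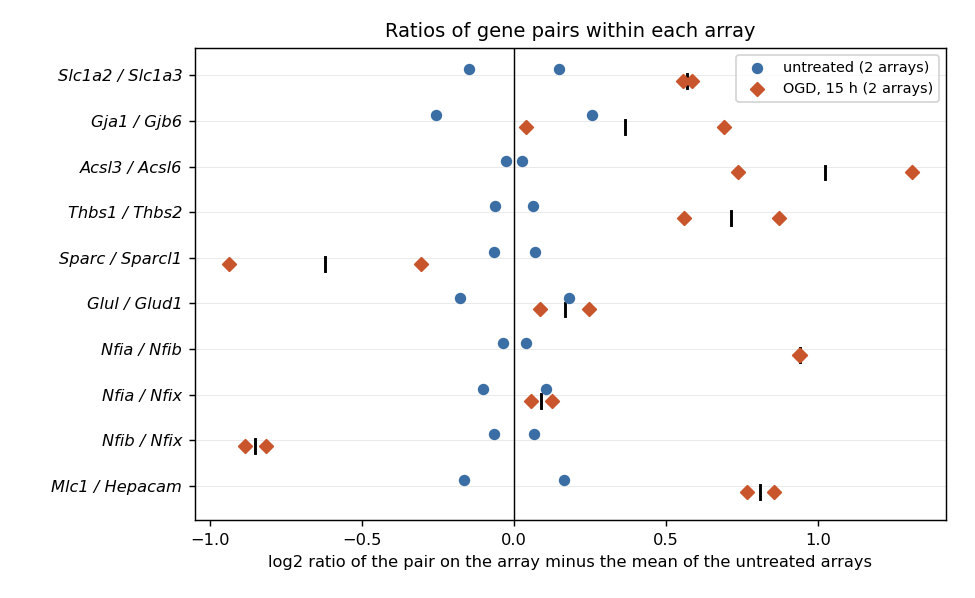
Log2 ratio of the brightest probes of 2 genes on the same array, minus the mean of the untreated arrays (x axis), for 10 gene pairs (rows), with untreated arrays as blue circles, OGD arrays as orange diamonds and the mean of the OGD arrays as a black tick. The groups do not overlap in 7 pairs, of which *Nfib* to *Nfix* (−0.85) and *Sparc* to *Sparcl1* (−0.62) moved to the left.

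Several of these genes gave different answers from different probes. The most upstream probe was set against the most downstream one in the 14 genes where both were well above background on every array, which leaves out *Fgfr3*. The upstream probe had the higher change in 11 of the 14 (78.6%), with a median difference of 0.32. Over the 4650 genes of this kind the share was 74.9% and the median 0.36, so the astrocyte genes lay near the background. Both 75th-percentile and spike-in scaling subtract a constant from each array, so the difference is equal with both. It need not be equal with quantile normalization. There, for example, the upstream and downstream probes of *Gfap* were at 0.72 and 0.27, and those of *Sparc* at −0.27 and 0.79. With 75th-percentile scaling the difference was largest for *Aldh1l1*, at 2.94, followed by *Slc4a4* (1.22), *Nfib* (0.91), *Id4* (0.68) and *Nfix* (0.56). *Nfia* (−0.69), *Chrdl1* (−0.41) and *Sparc* (−0.17) ran the other way. In *Sparc*, *Gfap* (0.0036) and *Slc39a12* (0.060) the ratio of both probes overlapped between the groups.

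These differences depended on the background correction. With normexp the upstream probe was the higher one in 6 of the 14 genes (42.9%, median difference −0.037), against 76% of all such genes. *Aldh1l1* (2.14), *Nfib* (1.08) and *Nfix* (0.49) stayed above 0, while *Slc4a4* and *Id4* were at −0.12 and −0.076.

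**Figure D5:**
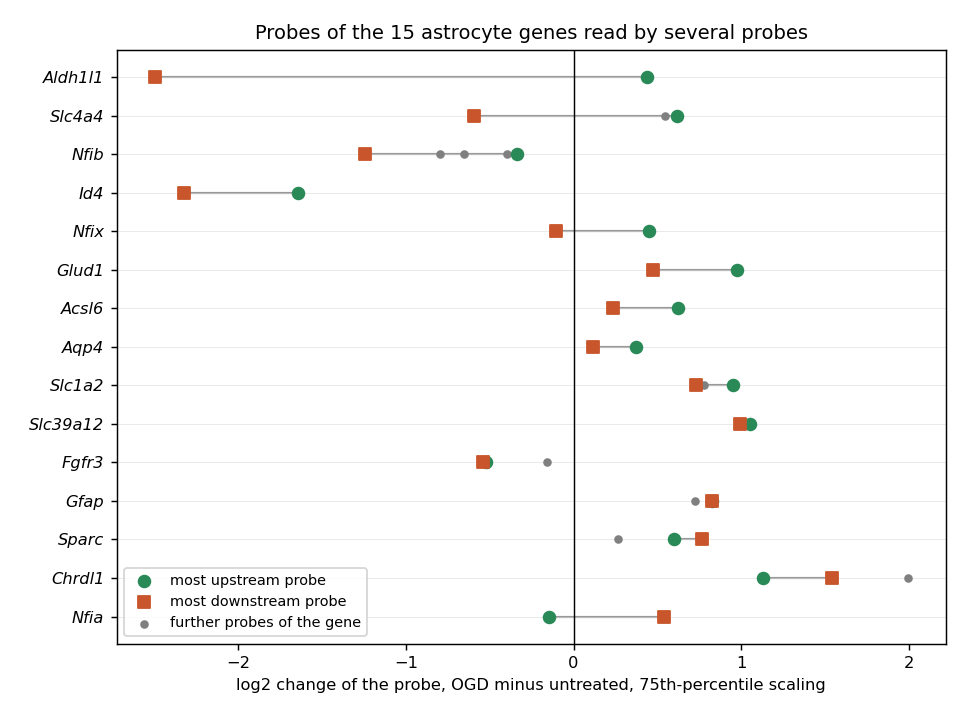
Log2 change, OGD minus untreated, with 75th-percentile scaling (x axis) of each probe of the 15 astrocyte genes with several probes (rows), with the most upstream probe as a green circle, the most downstream as an orange square and the rest as grey points. Leaving out *Fgfr3*, whose upstream probe was not well above background after OGD, the downstream probe lies to the left in 11 of 14 genes, by 2.94 in *Aldh1l1*, and to the right in *Sparc*, *Chrdl1* and *Nfia*; with normexp background correction it lies to the left in 6.

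A list of 42 further genes enriched in astrocytes was read in the same fit. Of these, 25 rose (59.5%, against 37.1% of all genes), 6 fell (14.3%, against 27.8%) and 11 were not called, with a median of 0.59 relative to the 75th percentile (−0.70 against the spiked-in RNA, where 35 were lower, 83.3% as over all genes, and 0 higher in limma). The coagulation receptor *F3* (1.63), the growth factor receptor *Fgfr2* (1.55) and *Itih3* (1.22), a chain of the hyaluronan-binding inter-alpha-trypsin inhibitors, rose the most, and were at 0.34, 0.26 and −0.069 with spike-in scaling. *Fgfr2* thus rose relative to the 75th percentile where its relative *Fgfr3* fell. Of the genes well above background on every array, *Tril*, an accessory protein of Toll-like receptors (−1.26), the thyroxine transporter *Slco1c1* (−1.05) and *Fjx1* (−0.81) fell the most on the first scale and were lower still on the second; *Tril* was at −0.36 with normexp background correction. *Slc7a10*, an amino acid exchanger, was also called lower, but was not well above background after OGD and by its bound was at least 1.05-fold lower (limma adjusted p = 0.0021), and with normexp it was at 0.82.

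Markers of other cell types were measured beside the astrocyte genes. Of 12 microglial markers 11 were tested, 4 of them higher (36.4%, against 37.1% of all genes) and 2 lower (18.2%, against 27.8%) relative to the 75th percentile, with a summed signal of 5099 and 4554 untreated and of 6042 and 5123 after OGD. A sum over probes can be set only against the same sum on another array. Without *Cd68* the sum ran the other way, from 3942 and 3341 to 1741 and 1345. *Cd68*, a lysosomal protein, rose by 3.14 (1.85 with spike-in scaling) from 1157 and 1213 to 4301 and 3778. *Csf1r*, the target of PLX3397, rose by 1.14, *Aif1* (Iba-1) by 1.03 and *C1qb* by 0.70 relative to the 75th percentile, against −0.15, −0.26 and −0.59 with spike-in scaling, and *Tmem119* (−0.88) and *Trem2* (−0.93) fell. *Itgam*, a microglial integrin, had signals of 3328 and 2726 untreated and of 1376 and 1015 after OGD and was at 0.023 (adjusted p = 0.907; −1.27 with spike-in scaling). *P2ry12* and *Tmem119* were well above background on both OGD arrays, *Cx3cr1* and *Ptprc* on neither, and *C1qa* was too dim to be tested. Normexp background correction gave 9 of the 11 as higher (81.8%, against 60.5% of all genes), with *Tmem119* at 0.18 and *Trem2* at 0.67. The summed signal of 12 oligodendrocyte lineage markers was 82940 and 78890 untreated and 38980 and 35410 after OGD, with 5 higher (41.7%) and 4 lower (33.3%) on the first scale, among them *Olig2* (−2.51), a factor that glial progenitors also express, and *Ermn* (1.21). Neuronal markers summed to 66960 and 63420 untreated and to 27810 and 26830 after OGD (3 of 10 higher, 30%, and 2 lower, 20%), and those of fibroblasts and meninges to 35190 and 31140 against 11360 and 8017 (2 of 10 higher, 20%, and 3 lower, 30%; 9 summed). For endothelium and ependyma the sums were 18370 and 17830 against 6441 and 5220 (2 of 6 higher and 2 lower, 33.3% each). The part of these other cells in the changes of the astrocyte genes was not tested.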

How the data were processed

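Total RNA of AECs was labeled with Cy3 and hybridized by the authors to single-color Agilent mouse arrays, 1 sample per array; all 4 arrays lay on 1 slide with 1 scan time. The authors deposited intensity values for each spot, namely the processed signal of Agilent Feature Extraction (version 11.5.1.1 per the submitters' processing notes), with background subtracted within each array and no scaling between arrays. Probe positions are on mm9, per the file headers. Control and outlier spots were left out, spots of a probe averaged on the log2 scale, and the 75th percentile of each array subtracted. Probes were kept if both untreated or both OGD arrays read them well above background, and these 28254 were compared with limma 3.58.1 (R 4.3.3; lmFit, eBayes) and Benjamini–Hochberg adjustment; a gene took its brightest probe over the 4 arrays. The step was tested on simulated data with 200 changed probes. Figures used Python 3.11.15 and matplotlib 3.10.9.

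The 34 genes and the further lists were chosen with earlier results of these data known, so no list was tested as a set. All 34 genes are named; signals per array are given for those called with a log2 change over 1 and for the common markers, and of each other list up to 3 genes rising and 3 falling that were called and well above background on all 4 arrays. The comparison of probes by position (also with normexp background correction, and limited to probes well above background throughout), that of unscaled signals, normexp for the further lists, the naming of Sox2 and the microglial sum without Cd68 were chosen after seeing the data. The fold limit of 10 in the study's methods was an alternative. For arrays, precision is limited by the number of arrays, 2 per group. Not every gene counted in a list is reported by name here.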

Additional observations from a re-analysis of the deposited data

How the results depend on the processing

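Scaling decided the sign of most changes. With spike-in scaling, 0 of the 34 genes were higher and 26 lower, with a median of −0.67, and 1262 probes of all were higher and 23153 lower, against 10707 and 7644 with the 75th percentile. The changes that turned were Gfap −0.56, Aldh1l1 −0.85, S100b −0.16, Nfia −0.75, Nfix −0.83, Slc1a2 −0.34, Slc1a3 −0.91, Slc6a11 −0.71, Glul −0.65, Glud1 −0.82, Aqp4 −1.17, Mlc1 −0.55, Gja1 −0.19, Gjb6 −0.56, Cldn10 −0.40, Atp1b2 −0.85, Slc4a4 −0.74, Slc39a12 −0.29, Gpr37l1 −0.41, Acsl3 −0.032, Acsl6 −1.05, Fabp7 −0.80, Clu −0.45, Sparcl1 −0.067, Sparc −0.69 and Thbs2 −0.43, all by the subtraction of the same 1.29. With quantile normalization 14 genes were higher and 7 lower, with a median of 0.15, which is 0.17 above that of all genes, and the changes that turned were Gfap −0.026, Aldh1l1 −0.34, Nfix −0.0092, Slc1a3 −0.34, Glud1 −0.20, Aqp4 −0.51, Mlc1 −0.18, Atp1b2 −0.088, Fabp7 −0.42, Clu −0.083 and Sparc −0.27. The percentile over probes well above background gave a median of 0.47 and turned Aqp4 to −0.034, and the calls of Nfix and Glud1 were lost (adjusted p = 0.069 and 0.068).

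Normexp background correction raised the probes called higher to 17749 and left the median of the 34 genes 0.11 above that of all genes. It moved dim second probes of Fgfr3 (1.12), Slc4a4 (0.65) and Nfia (0.44) above 0. The distance to the median of all genes was 0.21 with no filter on dim probes and 0.39 with probes well above background on all arrays only. It was 0.52 with the mean over a gene's probes, where 19 genes were higher (55.9%, against 37% of all genes) and 5 lower (14.7%, against 27%). With that mean the median of the 34 genes was 0.68, and the calls of Nfia, Nfix and Slc4a4 were lost (limma adjusted p = 0.0802, 0.237 and 0.212). Aldh1l1 then turned to −1.03, the ratio of Glul to Glud1 turned to −0.086 and that of Nfia to Nfib was 0.88. The causes were not tested. A limit of 2-fold left 7 genes higher and 2 lower (3937 and 4170 probes), and a limit of 10-fold left 0 and 0 (229 and 148 probes).

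Leaving out 1 array at a time gave between 14 and 23 genes higher and between 2 and 4 lower, between 5871 and 11020 probes higher and between 4821 and 8138 lower, a median of the 34 genes between 0.60 and 0.71, and a distance to the median of all genes between 0.46 and 0.55. In these runs Hepacam ranged from −0.15 to 0.0094, the ratio of Glul to Glud1 from −0.013 to 0.35 and that of Nfia to Nfix from −0.015 to 0.19, each changing sign. The group then left with 1 array is assumed to vary like the other. The labels number the replicates in both groups, and the deviations of same-numbered arrays did not correlate (−0.057). That value does not settle whether same-numbered samples came from the same culture, since a shared culture may move only some genes. With the replicate block 24 genes were higher (70.6%, against 34.3% of all genes) and 4 lower (11.8%, against 26.4%). Gjb6 and Sparc were called there (limma adjusted p = 0.0137 and 0.0193). With the methods' t-test 16 genes were higher (47.1%, against 25.8% of all genes) and 3 lower (8.82%, against 19.8%), and the calls of Nfix, Glul, Glud1, Fgfr3, Acsl3, Fabp7 and Clu were lost (adjusted p between 0.0521 and 0.0908). Over all of the 34 genes and alternatives, 479 values kept their direction and call, 39 lost the call, 20 gained one and 40 changed sign. Under the 18 settings, Sox9, Nfib, Id4 and Fgfr3 stayed below 0 and Chrdl1, Thbs1 and Ndrg2 above 0, but the calls of these last were lost with spike-in scaling, where Ndrg2 was at 0.0025 (adjusted p = 0.984).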
